A study of Mus musculus with 4 samples.

Results

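The genes described here are the receptors for the colony-stimulating factors and their closest relatives: Csf1r, Csf2ra, Csf2rb, Csf3r, Kit and Flt3, together with Csf1, which encodes M-CSF, the ligand of Csf1r. They were chosen by symbol, and all 7 of 7 had at least 1 probe set named for a single gene, out of 18193 genes so named on the array. The data follow mouse marrow cells through osteoclast formation in culture, with 1 expression array for each of 4 stages and no replicates. All cells came from the marrow of C57BL/6 mice aged 8 to 10 weeks. The labels name no transgene, deletion or other allele, and do not say how many animals supplied each RNA.

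The groups differ in culture. Bone marrow macrophages (BMM) were marrow cells kept in M-CSF (100 ng/ml) over 3 days. Pre-osteoclasts (pOC) were the same kind of cells after 2 days with M-CSF and RANKL, each at 100 ng/ml, collected as mononuclear cells positive for tartrate-resistant acid phosphatase. Mature osteoclasts on plastic (mOCp) and on dentin (mOCd) had both cytokines for 2 further days and were multinucleated. M-CSF was therefore in the medium of every group, and in pOC against BMM the presence of RANKL and the longer culture cannot be told apart. In the mature cultures against pOC, RANKL was present on both sides, and the longer culture and the formation of multinucleated cells cannot be told apart. Against BMM the mature cultures differed in RANKL as well. For mOCd the dentin was a further difference from both pOC and BMM, and it cannot be told apart from the others there.

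As background, M-CSF signals through CSF1R, a receptor tyrosine kinase that macrophages and osteoclasts need for survival, and KIT and FLT3 belong to the same structural class of kinases but mark stem and progenitor cells, mast cells or dendritic precursors. GM-CSF binds an alpha chain (Csf2ra) that pairs with a common beta chain (Csf2rb), which also serves the receptors for IL-3 and IL-5. Mice carry a second beta chain gene, Csf2rb2, whose product serves IL-3 only and is very similar in sequence. G-CSF binds CSF3R, the receptor best known on neutrophils and their precursors. The transcription factor PU.1, encoded by Spi1, is a known activator of several of these receptor genes in myeloid cells.

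Values are linear signal intensities per probe set. An intensity under the 50th percentile of its array, called the floor, was treated as not measurable, and the floor lay at 12.7 (BMM), 14.5 (pOC), 14.8 (mOCp) and 15.8 (mOCd). The rule for counting a gene as higher or lower was that its floored values differed at least 2-fold and that the brighter one reached the 75th percentile of its array, which lay between 77.8 and 87.0. With 1 array per group there is no test, and the only guide to error is the disagreement between probe sets of one gene, whose SD on the log2 scale was between 0.39 and 0.50 over the 6 comparisons. The levels of different probe sets cannot be set against each other, so each gene is compared only with itself across stages.

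The 7 genes fell into 3 kinds. Csf1r, Csf2ra and Csf2rb lay at or above the 75th percentile on all 4 arrays. Csf1 lay above the floor on all 4 arrays and Csf3r in BMM only, and neither reached the 75th percentile on any. Kit and Flt3 lay under the floor on all arrays. Among the 3 bright receptors Csf2rb differed by 2-fold or more between stages, while Csf1r and Csf2ra stayed within 2-fold on their brightest probe set.

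Promoter sequences from RefSeq (build GRCm38.p6) were at hand for 5 of the 7 members. Those of Csf2ra, which was bright at every stage, and of Csf3r, which lay under the floor in all 3 RANKL-treated cultures, are shown as a bright and a dim receptor, with that of Csf2rb2, the paralog of Csf2rb. Each is the 250 bases before the annotated start, 5′ to 3′ on the gene's strand, and capitals mark GAGGAAG, a core recognised by PU.1, or its reverse complement CTTCCTC. It was the 1 motif searched, and it was chosen after these sequences had been read.
Csf2ra, chr19:61228419-61228668, minus strand: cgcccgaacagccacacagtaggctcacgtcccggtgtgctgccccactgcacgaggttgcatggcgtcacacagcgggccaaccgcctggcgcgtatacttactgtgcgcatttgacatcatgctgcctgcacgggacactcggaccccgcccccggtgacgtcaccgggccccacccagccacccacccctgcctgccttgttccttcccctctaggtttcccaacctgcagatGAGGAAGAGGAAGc
Csf2rb2, chr15:78305722-78305971, minus strand: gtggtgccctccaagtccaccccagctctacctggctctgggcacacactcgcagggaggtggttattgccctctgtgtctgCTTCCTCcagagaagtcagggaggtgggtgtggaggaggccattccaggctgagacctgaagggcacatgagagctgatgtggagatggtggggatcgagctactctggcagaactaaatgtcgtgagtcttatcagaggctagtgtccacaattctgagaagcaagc
Csf3r, chr4:126024409-126024658, plus strand: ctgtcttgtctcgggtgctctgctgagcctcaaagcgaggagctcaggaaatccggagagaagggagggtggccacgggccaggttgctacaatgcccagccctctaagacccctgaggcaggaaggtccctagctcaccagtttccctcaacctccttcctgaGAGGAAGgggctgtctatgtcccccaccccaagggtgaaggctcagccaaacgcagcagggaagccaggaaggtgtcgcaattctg
The Csf2ra window held 2 matches that overlap by a single base, beginning 14 and 8 bases before the start. The Csf2rb2 match began 168 bases and the Csf3r match 86 bases before it. Of the 5 members with a window, 3 held the letters (Csf2ra, Csf3r and Kit) and 2 did not (Csf1 and Flt3), against 10.6% of all 32851 windows of this length. Genes above and under the floor were on both sides of that split. A match is a string of letters and not a measured binding site. Because the motif was chosen after some of these windows had been read, the share among members is no test of enrichment.

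**Figure D1:**
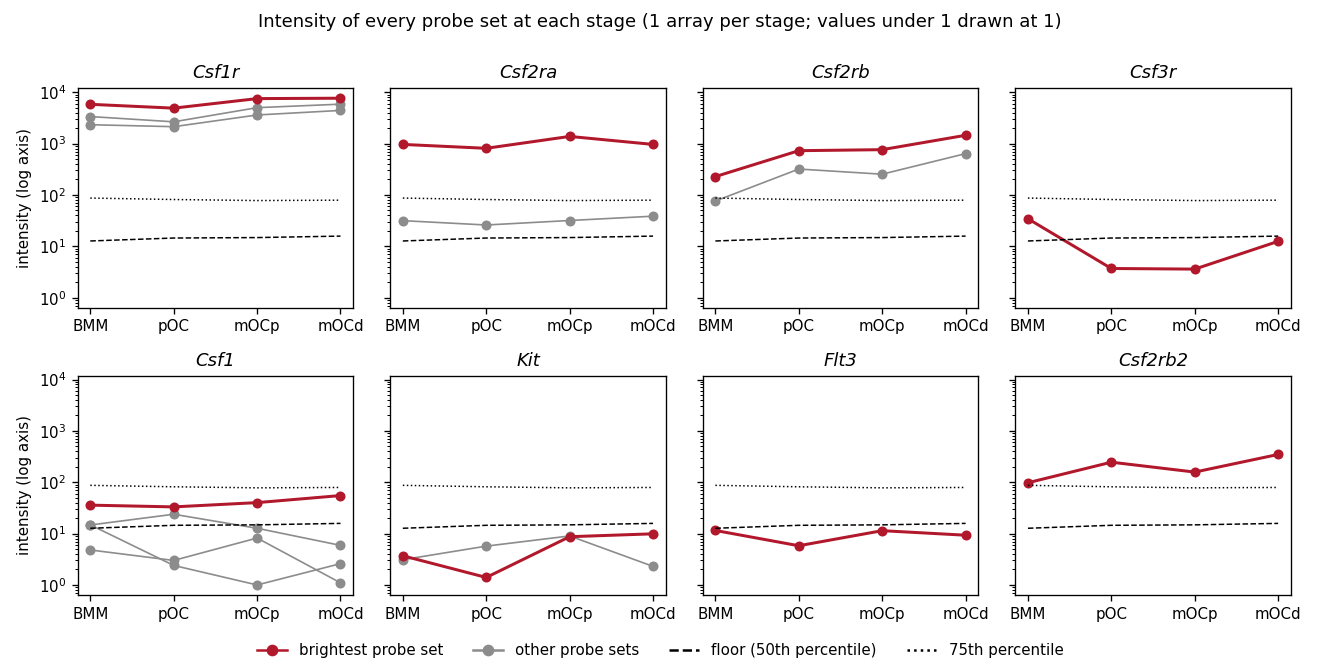
Intensity (log axis) of every probe set of the 7 genes and of Csf2rb2 at the 4 stages, 1 array per stage, with the brightest probe set in red, the others in grey, the floor dashed and the 75th percentile dotted. Csf1r, Csf2ra and Csf2rb stay above the dotted line on their brightest probe set, Csf2rb is highest in mOCd, and Kit and Flt3 lie under the dashed line throughout.

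Csf1r, the M-CSF receptor, was measured by 3 probe sets. The brightest read 5815.9 (BMM), 4898.6 (pOC), 7511.7 (mOCp) and 7644.1 (mOCd). The second read 3360.7, 2653.6, 5004.1 and 5851.2 in the same order, and the third 2330.5, 2133.1, 3605.2 and 4421.9. On all 3 the pOC array was the lowest and the mOCd array the highest. In such bulk RNA, fewer cells of a kind and less RNA per cell cannot be told apart, for this and all genes below.

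The size of these differences was small. Against BMM, Csf1r in pOC differed by a log2 ratio of −0.25 on the brightest probe set and by −0.34 and −0.13 on the others, all within the probe-set disagreement of 0.39. On the brightest probe set it was −0.53 with quantile normalization and −0.65 with cyclic loess, both past that disagreement. In mOCp against pOC the ratio was 0.62, with 0.92 and 0.76 on the other probe sets, against a disagreement of 0.40. In mOCd against pOC it was 0.64 on the brightest probe set, whereas the others gave 1.14 and 1.05, which is 2.21-fold and 2.07-fold. The gene was therefore not counted, although 2 of its 3 probe sets passed 2-fold in that comparison. Between the 2 substrates the log2 ratio was 0.03 in mOCd against mOCp and up to 0.29 on the other probe sets, within the disagreement of 0.43.

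The hybridisation spike-ins were, like Csf1r, dimmest in pOC and brighter in both mature cultures than in BMM. Their mean log2 intensity over 12 probe sets was 10.94 (BMM), 10.78 (pOC), 11.21 (mOCp) and 11.13 (mOCd). When the arrays were scaled to them, the Csf1r ratio was 0.19 in mOCp against pOC and 0.29 in mOCd against pOC. The part of the scaling in these differences was not tested further. Against BMM, the mOCp ratio of 0.37 changed sign under quantile normalization (−0.13) and cyclic loess (−0.26), and the mOCd ratio of 0.39 under loess (−0.04). The order of mOCp, mOCd and BMM for Csf1r is thus not settled by these arrays.

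Csf2ra encodes the chain that binds GM-CSF. Its brighter probe set read 963.5 (BMM), 809.4 (pOC), 1378.3 (mOCp) and 963.2 (mOCd). Only the mOCp array stood apart from the rest, by 1.70-fold over pOC and 1.43-fold over BMM. The dimmer probe set read 31.6, 26.0, 31.8 and 38.6 in BMM, pOC, mOCp and mOCd, and it was highest in mOCd rather than in mOCp. For mOCd against mOCp the log2 ratio was −0.52 on the brighter probe set and 0.28 on the dimmer one, so the direction between substrates is not settled for this gene. In no comparison did either probe set reach 2-fold. Scaled to the spike-ins, the log2 ratio in mOCp against pOC was 0.34 in place of 0.77.

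Csf2rb, the common beta chain that transmits the signal of GM-CSF, IL-3 and IL-5, was the 1 member counted in any comparison. Its brightest probe set read 227.8 (BMM), 727.3 (pOC), 761.8 (mOCp) and 1450.2 (mOCd). The other read 76.2, 319.4, 253.5 and 637.7 in the same order. On both, BMM was the lowest array and mOCd the highest, with pOC and mOCp close together in between.

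In pOC against BMM, Csf2rb was 3.19-fold higher (log2 ratio 1.67, and 2.07 on the other probe set, against a disagreement of 0.39). It was the only 1 of the 7 members counted in that comparison, in which 4.44% of all genes were counted as higher and 5.24% as lower. Among the genes bright enough to be counted, as 3 of the members were, 11.1% were higher. The ratio lay between 1.56 and 2.07 over all alternatives tried, and the gene was counted under each.

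In mOCp against pOC, which follows maturation on plastic, the Csf2rb log2 ratio was 0.07 on the brightest probe set, −0.33 on the other and −0.36 when scaled to the spike-ins. No member was counted in that comparison, where 3.47% of all genes were higher and 4.51% lower. On dentin, mOCd against pOC, the gene was 1.99-fold higher on the brightest probe set and 2.00-fold on the other, both just under the threshold before rounding. No member was counted there, with 4.28% of genes higher and 4.86% lower. With median scaling or cyclic loess Csf2rb passed, at log2 ratios of 1.09 and 1.06, and scaled to the spike-ins the ratio was 0.64.

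Between the substrates Csf2rb was brighter in mOCd than in mOCp by 1.90-fold on the brightest probe set and by 2.52-fold on the other. It was not counted by the rule, in a comparison where 0.835% of all genes were counted as higher and 0.967% as lower. The log2 ratio was 0.93, against a probe-set disagreement of 0.43, and it was 1.13 as a mean over both probe sets, 1.01 with spike-in scaling and 1.00 with cyclic loess, all 3 past the threshold. Against BMM, Csf2rb was 3.34-fold higher in mOCp, where 6.89% of genes were higher and 7.93% lower, and 6.37-fold higher in mOCd, where 7.79% were higher and 8.40% lower. The second probe set gave 3.33-fold and 8.37-fold. On the mOCd array, where Csf2rb was highest, the log2 ratio of 3′ over 5′ probe sets, a sign of RNA quality, was 1.70 for the transferrin receptor control, against 0.84 in mOCp, 1.01 in pOC and 1.00 in BMM. For the actin control it was 0.28 in mOCd against 0.20 in mOCp, 0.29 in pOC and 0.16 in BMM, and for Gapdh it lay between −0.43 and −0.29 on all arrays. Their part in the Csf2rb and Csf2rb2 values was not tested.

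Csf2rb2, the second beta chain gene of mice, read 97.7 (BMM), 245.6 (pOC), 157.6 (mOCp) and 347.4 (mOCd) on its only probe set. It was counted as higher in pOC than in BMM (2.51-fold), in mOCd than in BMM (3.56-fold) and in mOCd than in mOCp (2.20-fold). A further probe set that the annotation assigns to both genes read 23.5, 94.8, 81.0 and 133.6 in BMM, pOC, mOCp and mOCd. All 4 probe sets for the pair thus had BMM lowest, mOCd highest and mOCp under pOC, except that the brightest Csf2rb probe set had mOCp slightly above pOC. The transcripts are very similar, and cross-hybridisation between them was not tested, so the values of either gene alone are uncertain.

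**Figure D2:**
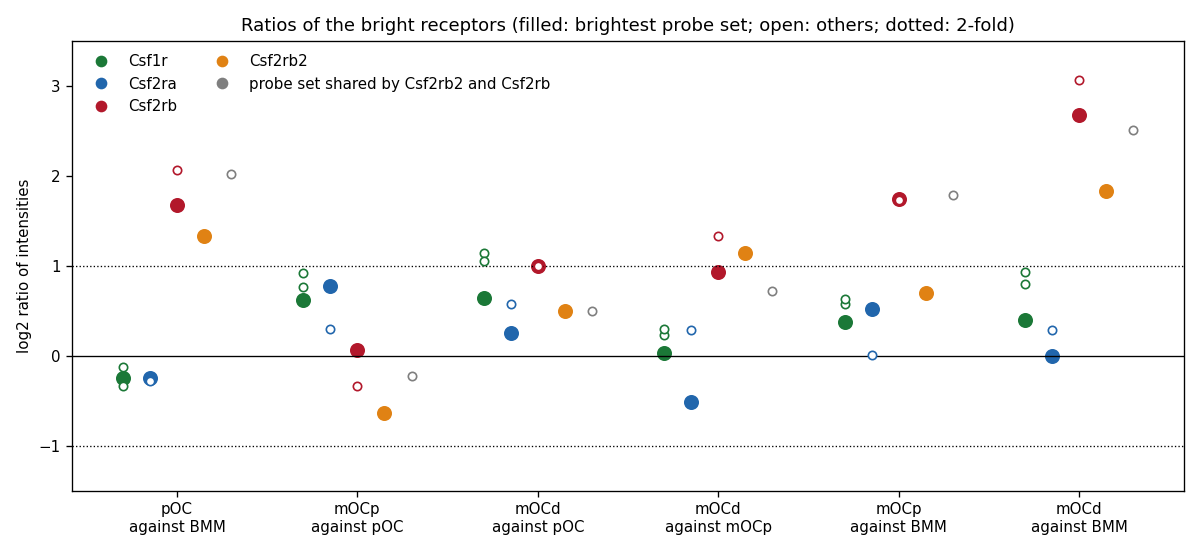
Log2 ratios of intensities for the bright receptors in the 6 comparisons, with filled points for the brightest probe set, open points for the others and dotted lines at 2-fold. The points of Csf2rb and Csf2rb2 lie above 0 wherever BMM is the array compared with and in mOCd against mOCp, while Csf1r and Csf2ra stay within 2-fold on their filled points.

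The 6 comparisons share arrays, so their ratios are not independent of each other. Set among all genes bright enough to be counted, whose median log2 ratio was 0.04 in pOC against BMM and −0.03 in mOCd against BMM, Csf1r and Csf2ra lay near the middle and Csf2rb in the upper tail of the comparisons with BMM.

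**Figure D3:**
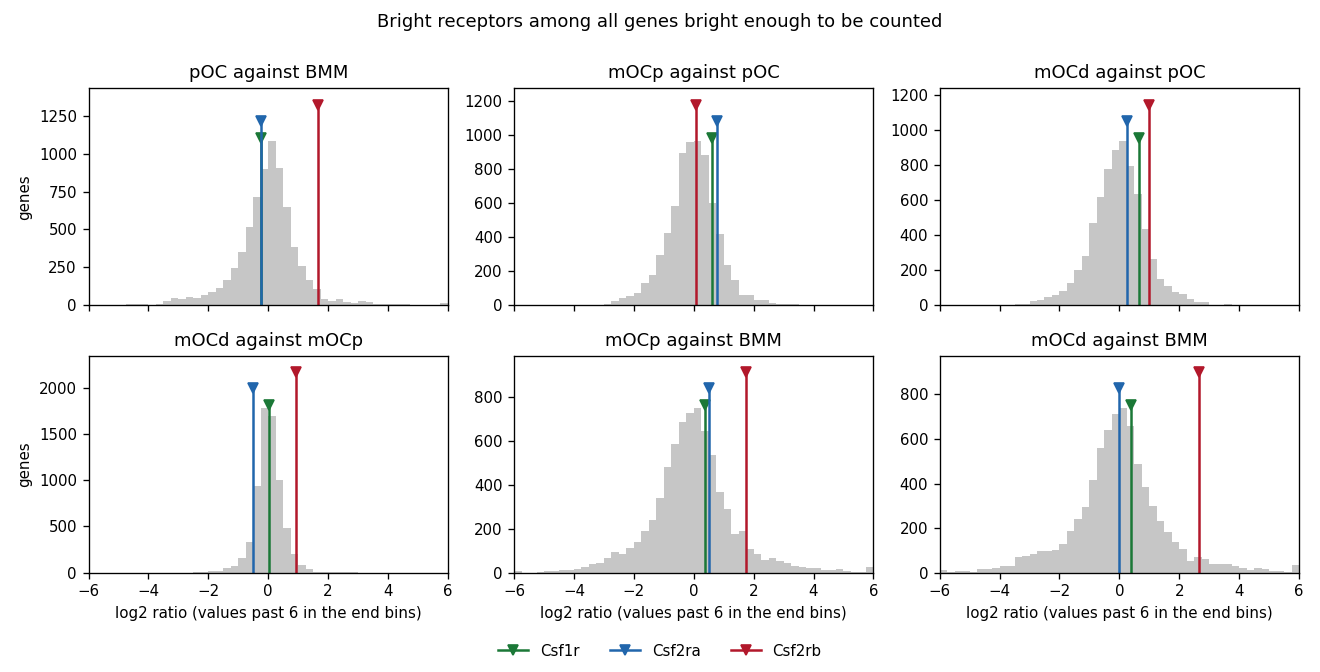
Histograms of log2 ratios for all genes whose brighter value reached the 75th percentile, 1 panel per comparison, with the ratios of Csf1r, Csf2ra and Csf2rb as vertical lines. The Csf2rb line stands at 1.67 in pOC against BMM and at 2.67 in mOCd against BMM, to the right of most genes, while the Csf1r and Csf2ra lines fall inside the bulk.

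Csf3r, the G-CSF receptor, read 34.4 (BMM), 3.7 (pOC), 3.6 (mOCp) and 12.5 (mOCd) on 1 probe set. It was measurable in BMM alone and at least 2.37-fold lower in pOC, 2.32-fold in mOCp and 2.18-fold in mOCd, each a bound set by the floor. With the floor at the 40th percentile the log2 ratios were −1.83, −1.81 and −1.46 in pOC, mOCp and mOCd against BMM, and at the 60th they were −0.51, −0.51 and −0.40. It was not counted, because 34.4 lies under the 75th percentile of the BMM array. Neutrophil markers had another order. The summed intensity of 9 such genes was 844.8 (pOC), 1889.5 (mOCp) and 971.3 (mOCd), against 325.4 in BMM, of which S100a8 gave 1112.6 in mOCp. The granule gene Lcn2 read 121.4 (pOC), 367.9 (mOCp) and 102.7 (mOCd), against 8.4 in BMM, and Ngp 44.2, 101.2 and 100.0, against 44.0. Camp read at most 43.0 and Mpo, Elane and Ltf at most 41.0 on any array, and Cxcr2 lay under the floor on all 4. Cd34, a surface marker of progenitors, read 42.3 in BMM and 4.5, 1.5 and 5.9 in pOC, mOCp and mOCd, so it too lay above the floor in BMM alone. The other measured progenitor markers did not share this on their brightest probe sets. Gata2 read 31.6 (BMM), 28.4 (pOC), 24.4 (mOCp) and 34.8 (mOCd), above the floor on all 4 arrays. Meis1 exceeded the floor in pOC and mOCd only (18.7 and 19.0), Hoxa9 in mOCd only (20.4), and Myb on no array. The part of such cells in the Csf3r signal was not tested.

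Kit, the receptor for stem cell factor, read between 1.4 and 9.9 on both of its probe sets over the 4 arrays, and Flt3 between 5.8 and 11.5 on its only one. All lay under the floor, so no fold is given. Markers of the cells that carry these receptors were also dim. Of 7 mast cell genes at most 1 exceeded the floor on any array and none reached the 75th percentile. Of 5 measured progenitor genes none reached it either. Among 5 dendritic cell genes, Itgax, which encodes the integrin CD11c, was the only one to reach it, at 91.5 in mOCp and 102.1 in mOCd, against 34.3 in pOC.

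Csf1, the gene for M-CSF, was measured by 4 probe sets that did not run together. The brightest read 35.8 (BMM), 33.1 (pOC), 40.1 (mOCp) and 55.0 (mOCd), above the floor on all 4 arrays and under the 75th percentile on each. Of the other 3, one read 14.7, 23.8, 12.7 and 5.9, another 14.8, 2.4, 0.9 and 2.6, and the last between 1.1 and 8.2. The direction on the brightest, 1.54-fold higher in mOCd than in BMM, was not shared by them, and the gene was not counted in any comparison. All 4 cultures received the M-CSF protein in their medium.

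The other ligands of these receptors were mostly under the floor. Csf2, encoding GM-CSF, read at most 1.8. Csf3, encoding G-CSF, read 1.4 (BMM), 9.5 (pOC), 19.4 (mOCp) and 26.0 (mOCd), above the floor in the mature cultures only. Il34, the second ligand of CSF1R, read 1.3 (BMM), 41.7 (pOC), 28.1 (mOCp) and 24.1 (mOCd), so it was measurable only in the cultures with RANKL and did not reach the 75th percentile. Il3 stayed under the floor on every array and Il5 exceeded it in mOCd only, at 17.6. Flt3l, the gene for the ligand of FLT3, had no probe set named for it alone. A probe set shared with Rpl13a read 30.0 (BMM), 3.4 (pOC), 1.4 (mOCp) and 1.6 (mOCd), which cannot be assigned to either gene.

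Kitl, the ligand of KIT, was the exception. Its brightest probe set read 214.4 (BMM), 90.0 (pOC), 149.2 (mOCp) and 104.0 (mOCd). It was 2.38-fold lower in pOC than in BMM, with 2.10-fold on the next probe set, and 2.06-fold lower in mOCd than in BMM, with 1.88-fold on the next. The call in mOCd ended under median scaling (log2 ratio −0.91), quantile normalization (−0.92), loess (−0.90), the mean over probe sets and an added constant of 16 in place of the floor, and that in pOC under the mean over probe sets (−0.73). Its 2 dimmest probe sets read at most 28.6 on any array. The summed intensity of 7 stromal markers, genes of cells known to make this ligand, was 58.6 (BMM), 277.7 (pOC), 97.0 (mOCp) and 195.8 (mOCd), and Dcn supplied 196.1 of the pOC sum. Their part in the Kitl values was not tested. Among the related receptors, Il3ra, the alpha chain for IL-3, was highest in mOCp at 51.4 and lay under the floor in pOC alone, at 10.9, while Il5ra stayed under the floor.

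Over the 6 pathway lists, which hold ligands, related receptors, signalling proteins, transcription factors and proteases, 61 of 67 genes had a probe set named for them alone and 54 were measurable at some stage. In pOC against BMM, 5 were counted as higher and 12 as lower out of 40 bright enough, while 11.1% and 13.1% of all such genes were. In mOCp against BMM 6 and 13 of 41 were, beside 16.8% and 19.3% of all such genes, and in mOCd against BMM 6 and 14 of 40, beside 18.8% and 20.3%. The counts higher are thus near or under the share of all genes. In mOCp against pOC 3 were higher and 2 lower of 37 (8.77% and 11.4% of all such genes), but 1 and 4 when scaled to the spike-ins and 6 higher with median scaling. In mOCd against pOC 4 were higher and 1 lower of 37 (10.8% and 12.2%), but 1 and 5 when scaled to the spike-ins. In mOCd against mOCp 1 was higher and 3 lower of 38 (2.20% and 2.55%). The lists also hold Csf1 from among the 7 genes, which was not counted.

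Among 20 measured adaptors, kinases and phosphatases of CSF1R signalling, 2 were counted as higher and 3 as lower in pOC against BMM, with a median log2 ratio of −0.38 over the 18 that were bright enough, against 0.04 for all such genes. These counts are near the shares of all such genes, 11.1% and 13.1%. In mOCp against BMM 4 were higher and 4 lower of 19, again near the shares of all such genes, 16.8% and 19.3%. Src, the kinase that osteoclasts need to form a ruffled border, read 203.4 (pOC), 231.8 (mOCp) and 374.5 (mOCd), against 4.4 in BMM, which is at least 29.5-fold higher in mOCd. Cblb, a ubiquitin ligase that restrains receptor signalling, read 267.5 (pOC), 509.0 (mOCp) and 844.4 (mOCd), against 122.3 in BMM. Its next probe set had the same order, but its dimmest read 77.1 (pOC), 52.2 (mOCp) and 606.2 (mOCd), against 63.5 in BMM. On the brightest, Cblb was 6.90-fold higher in mOCd than in BMM. Its relative Cbl, which ubiquitinates CSF1R, was 2.47-fold lower in mOCp than in BMM, a call that ended with the mean over probe sets (log2 ratio −0.74). Syk, the kinase that reads ITAM receptors, was 4.02-fold higher in mOCd than in BMM. The next Syk probe set read 590.3 in mOCd against 168.6 in BMM, and a dimmer one 180.8 against 99.3. The dimmest read 10.1, under the floor, against 14.2. Tyrobp, the ITAM adaptor partner of Syk, was bright throughout, at 3949.5 (BMM), 3182.9 (pOC), 5871.6 (mOCp) and 5297.6 (mOCd).

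On the low side of that list were Dok2, an inhibitory docking protein, at 153.4 (pOC), 185.7 (mOCp) and 78.4 (mOCd), against 915.1 in BMM. Pik3cg, a catalytic subunit of PI3 kinase, was 3.34-fold lower in pOC than in BMM, and the kinase Fyn 3.10-fold. Ptpn6, a phosphatase of the list, read 544.1 in mOCd against 1188.9 in BMM, 2.19-fold lower. That call ended under median scaling (log2 ratio −0.99), and its other probe set read 178.3 against 268.6. Gab2, a docking protein between receptors and PI3 kinase, was counted as higher than in pOC in both mature cultures, at 783.1 in mOCp and 726.2 in mOCd, against 317.1 in pOC, though its 2 dimmer probe sets gave smaller ratios. Both calls ended when scaled to the spike-ins (log2 ratios 0.87 in mOCp and 0.84 in mOCd), with the mean over probe sets (0.91 and 0.76) and without probe sets of suffixed names (0.82 and 0.18). Fgr, a SRC family kinase, read 123.0 in mOCp against 39.0 in pOC and was 2.37-fold lower in mOCd than in mOCp.

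The JAK-STAT list bears on the cytokine receptors that lack a kinase of their own. Of its 12 measured genes, 8 were bright enough to be counted in pOC against BMM. There 1 was counted as higher and 3 as lower, beside 11.1% and 13.1% of all such genes. Socs3, a feedback inhibitor of these receptors, read 119.1 in pOC against 14.5 in BMM, 8.21-fold higher, and all 3 of its probe sets had BMM lowest. The BMM value lay just over the floor of 12.7. Socs3 was 4.94-fold higher with the floor at the 60th percentile and 4.43-fold with a constant of 16 added instead. It was not counted without probe sets of suffixed names, since the remaining one read 74.7 in pOC, under the 75th percentile. Jak2, the kinase bound to the common beta chain, read 54.7 in pOC against 122.2 in BMM, and 113.0 in mOCp and 111.5 in mOCd. It was counted as lower in pOC than in BMM and as higher in both mature cultures than in pOC, but none of these calls held when scaled to the spike-ins (log2 ratios −0.99 in pOC against BMM, 0.62 in mOCp and 0.67 in mOCd against pOC) or with an added constant of 16 in place of the floor. Stat5a, a factor activated by GM-CSF, was 2.34-fold lower in mOCp and 2.21-fold lower in mOCd than in pOC, and by more on its other probe set; the call in mOCd ended with the added constant (log2 ratio −0.94). Pim1, a kinase gene induced by STAT5, read 63.6 (pOC), 84.4 (mOCp) and 31.1 (mOCd), against 301.3 in BMM. Stat5b was counted as lower than in BMM on all of these arrays, at 45.1 (pOC), 49.4 (mOCp) and 39.6 (mOCd), against 105.8. Its other probe set read 38.6, 50.4 and 29.4, against 40.9. The Stat5b calls in pOC and mOCp ended with the added constant (log2 ratios −0.995 and −0.90), and that in mOCp also under median scaling (−0.94). With the mean over probe sets none of the Stat5b calls held, because the BMM value then lay under the 75th percentile. Socs2 read 100.1 in mOCd against 10.0 in BMM, at least 7.88-fold higher, and was counted in that comparison only.

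Of 8 measured transcription factors known at these receptor genes, 1 was counted as higher and 5 as lower in pOC against BMM, with a median log2 ratio of −1.78 over the 7 that were bright enough. Of all such genes 11.1% were higher and 13.1% lower, with a median of 0.04. Irf8, a factor of monocytes that restrains osteoclast formation, was 15.3-fold lower, Ets2 8.74-fold, Cebpa 4.40-fold, Cebpb 3.44-fold and Runx1 3.37-fold, the last not counted with the mean over probe sets. Spi1 itself read 1775.9 (pOC), 2200.7 (mOCp) and 2064.8 (mOCd), against 1005.3 in BMM, and passed 2-fold in mOCp and mOCd against BMM. Both calls ended when scaled to the spike-ins (log2 ratios 0.86 and 0.85), with quantile normalization (0.95 in both) and with loess (0.81 and 0.85). Mitf, a partner of PU.1 in osteoclasts, read 1505.5 in pOC against 469.4 in BMM, and was 2.87-fold lower in mOCp than in pOC. The part of these factors in the values of the receptor genes was not tested.

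Adam17, a membrane protease known to release the outer part of CSF1R, and its relative Adam10 had their highest value in BMM. Adam17 read 574.9 (pOC), 494.1 (mOCp) and 421.9 (mOCd), against 997.7 in BMM, and was 2.02-fold lower in mOCp and 2.36-fold lower in mOCd than in BMM. Adam10 was 2.31-fold and 2.90-fold lower in the same comparisons. In mOCp against BMM, the Adam17 call ended under median scaling (log2 ratio −0.85) and with the added constant (−0.99), and the Adam10 call with the mean over probe sets (−0.55). The other 3 measured genes of the shedding list were not counted in any comparison. In mOCd against BMM the other measurable probe sets of both proteases gave larger differences than the brightest. The part of the 3′ over 5′ signal given with Csf2rb in these values was not tested.

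**Figure D4:**
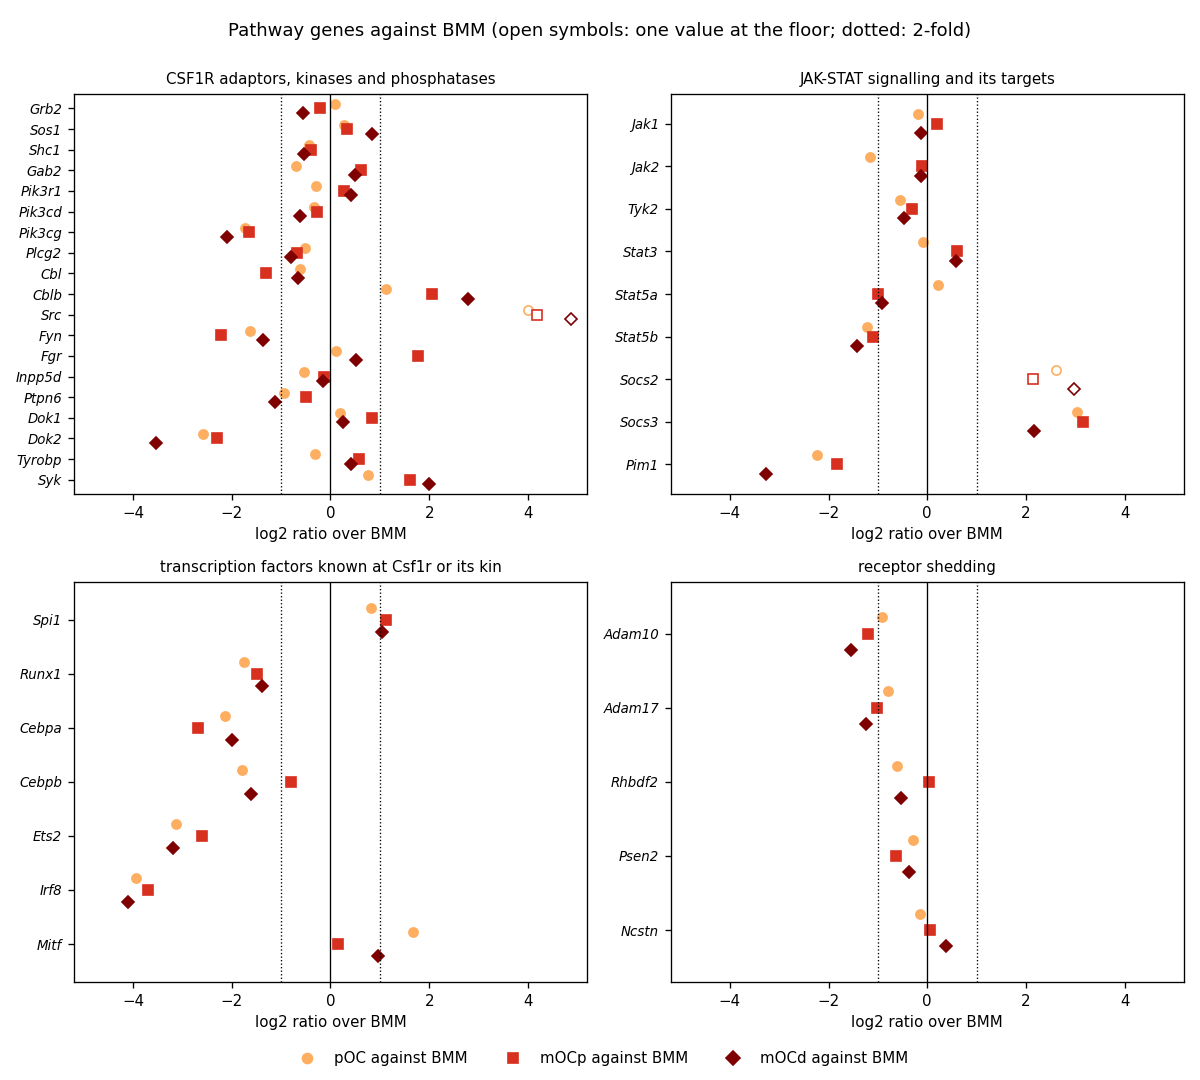
Log2 ratios against BMM for the genes of 4 pathway lists that reached the 75th percentile on at least 1 array, with circles for pOC, squares for mOCp and diamonds for mOCd, open where one of both values lay at the floor, and dotted lines at 2-fold. Src, Cblb, Syk, Socs2 and Socs3 lie to the right and Dok2, Pik3cg, Pim1, Ets2 and Irf8 to the left, and the 3 symbols of most genes lie on the same side.

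The labelled cell types were checked by markers. Of 8 osteoclast markers the summed intensity was 25966.3 (pOC), 40416.1 (mOCp) and 38440.5 (mOCd), against 413.0 in BMM, and all 8 reached the 75th percentile in both mature cultures. The sum over 7 macrophage markers was 5970.7 (pOC), 11416.6 (mOCp) and 8676.3 (mOCd), against 15688.6 in BMM. Cd68 alone gave 8622.9 of the mOCp sum and 7367.1 of the mOCd sum, and its lowest value was that of BMM, at 4155.4. Every other macrophage marker was brightest in BMM. C1qa read 3372.4 there and at most 108.9 on any other array, and Fcgr1 1967.2 and at most 57. Adgre1 kept more of its signal, with 1191.3 in mOCp against 1581.9 in BMM. All 7 markers reached the 75th percentile on the BMM array, 4 on the mOCp array and 3 on each of the others.

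The genes whose profile over the 4 arrays was nearest to that of each bright receptor, by Euclidean distance between log2 values centred on each gene's mean, were drawn from 7483 candidates. For Csf1r they were Icmt, Stx4a, Rb1cc1 and Kif13b, at distances of 0.04 to 0.06. For Csf2ra they were Ufl1, Ostf1, Cwc25 and Dync1li2, at 0.07 to 0.09. For Csf2rb they were Kif13a, Zswim4, Rai1 and Rcan1, at 0.09 to 0.17. Rcan1, an inhibitor of calcineurin, read 225.8 (BMM), 810.2 (pOC), 859.2 (mOCp) and 1448.5 (mOCd). With 4 points per gene, the likeness is given as a description only.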

How the data were processed

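Total RNA of 4 cell preparations, 1 each of BMM, pOC, mOCp and mOCd, was measured on single-channel arrays with Affymetrix probe set names. The deposited values are linear signal intensities per probe set, made with MAS5 per the submitters' processing notes; its version is not given in the sources used here. Each deposited column had a mean intensity of 100.0 after trimming 2% from each end, a scaling that removes any difference in total mRNA. Of 45101 probe sets, 64 were controls, 34945 had 1 gene symbol in a 2016 platform annotation, 932 had several and 9160 were unnamed here. By Entrez identifier 34741 matched a RefSeq gene of GRCm38.p6, and 0 symbols were updated.

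Each gene was represented by its brightest probe set (mean of log2 intensities over the arrays, values under 1 set to 1). The floor was the 50th percentile, and a ratio with 1 value at the floor is a bound. Genes were counted at 2-fold with the brighter value at or above the 75th percentile. The probe-set disagreement is the SD of the difference between the log2 ratios of a gene's 2 brightest measurable probe sets, divided by the square root of 2. With 1 array per group no test exists, and the number of arrays limits precision. All 7 members were named, pathway genes where counted (up to 5 per list and comparison) or where they are a partner, ligand or paralog, and the 4 nearest profiles per bright member. The members, lists and rules were chosen with earlier results of these data known. Alternatives covered the floor, scaling, probe set and thresholds. Counting was tested on data simulated from 1 array. These had less noise than the probe-set disagreement, and the planted changes were larger than 2-fold and only in bright genes. Such a run checks the code and gives no error rate for the counts here. Python 3.11.15, pandas 2.3.3, R 4.3.3 and limma 3.58.1 (quantile and cyclic loess) were used.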

Additional observations from a re-analysis of the deposited data

How the results depend on the processing

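The counting of Csf2rb as higher in pOC, mOCp and mOCd against BMM held under every alternative run. Over all members, 236 recomputed log2 ratios moved by less than the probe-set disagreement and 21 by more, and no counted ratio changed sign. Many of the 236 could not move. Another floor leaves a ratio as it is where both values lie above it. Leaving out suffixed probe sets did not alter the brightest one of Csf1r, Csf2ra and Csf2rb, and Csf3r has a single probe set to average. Members counted as lower became 1 in each comparison with BMM when the brighter value needed to reach only the 60th percentile, by which Csf3r passed. Members counted as higher were 0 in mOCp against pOC and became 2 at 1.5-fold. In mOCd against pOC they were 0, became 1 with median scaling or loess and 2 at 1.5-fold. In mOCd against mOCp they were 0 and became 1 with spike-in scaling, loess, the mean over probe sets or 1.5-fold. The next brightest probe set was an alternative added after seeing the data. Pathway counts stayed within 1.5 times the main count in 95 recomputations and moved further in 13. Scaling to the spike-ins shifted the median gene by −0.43 in mOCp against pOC and −0.35 in mOCd against pOC on the log2 scale, and by 0.16 in pOC, −0.27 in mOCp and −0.19 in mOCd against BMM. Median scaling shifted it by 0.12 in mOCp against pOC, 0.16 in mOCp against BMM and 0.14 in mOCd against BMM, and quantile normalization by 0.11 in mOCp against BMM. Genes higher and lower were 631 and 820 in mOCp against pOC, but 811 and 650 with median scaling and 284 and 1653 with the spike-ins. They were 779 and 885 in mOCd against pOC (442 and 1596 with the spike-ins), 807 and 953 in pOC against BMM (1032 and 785), 1254 and 1442 in mOCp against BMM (953 and 1953), and 152 and 176 in mOCd against mOCp (195 and 146). Without replicates, no array could be left out. Signal near the floor limits Csf1, Csf3r, Kit and Flt3. No paired analysis was possible because each group has 1 array.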
